A study of Mus musculus with 23 samples.

Results

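Mouse primary myotubes after 4 days of differentiation were compared with myotubes after 1 day. Myotubes are the multinucleated muscle cells that form when myoblasts leave the cell cycle and fuse. The members are the 6 arrays, of 23 in the series, whose source label gives 4 days (3 arrays) or 1 day (3 arrays) of differentiation, and all probes on them that are not controls. The series measured total RNA on 1-colour Agilent SurePrint G3 8x60K mouse arrays in embryonic stem cells, myoblasts at passage 0, proliferating myoblasts, myotubes of days 1, 2 and 4, and adult muscle, beside DNA methylation that is not used here. Both groups came from male C57BL/6J mice. Confluent primary myoblasts, which had been expanded in serum-rich growth medium, were placed on matrigel and switched to differentiation medium with 2% horse serum the next day. No transgene, drug or other agent separates the groups, so the time spent in differentiation medium is the labelled difference. Titles carry the culture numbers 21, 26 and 28, and each number occurs once per day. The labels do not say whether a number marks an animal or a culture. A p-value here rests on a spread pooled over the 7 replicated groups of the series, not on these 6 arrays alone. Part of that spread may be technical. The main fit did not pair arrays by culture number. A fit with the number as a block, which compares arrays within a number, is given as an alternative.

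In a differentiating myoblast, MyoD family factors switch on muscle genes, the cell stops dividing, fuses, and builds sarcomeres from embryonic and perinatal isoforms of myosin, troponin and actin. As the myotube matures, fast and slow adult isoforms, the membranes that couple excitation to contraction, mitochondria and the enzymes of energy buffering are added. The question here was how much of this later programme separates day 4 from day 1.

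Values are log2 levels, the log2 of the scanner software's processed signal minus the 75th percentile of that array, so 0 is the signal of the 75th percentile spot. They are given in the order of cultures 21, 26 and 28. Testing was limited to genes whose signal was well above background on all 3 arrays of day 4, of day 1, or of both. A call needed a limma adjusted p under 0.05 together with a fold of at least 2. All adjusted p-values are from limma with Benjamini-Hochberg adjustment over the 18933 genes tested, and differences are day 4 minus day 1 with their standard error (SE). Each of the 6 arrays was also left out in turn, and an ended call is named where it happened. Some genes were above background on only some arrays of a group, and their differences, given as fitted, rest in part on values not above it. Among the genes described here this was 1 of 3 day 1 arrays for Mybpc2, Rpl3l, Sgcd, Ppp1r3c, Wif1 and Fbxo40, 2 of 3 for Egr2, Ppp1r3a and Sypl2, and on day 4 it was 1 of 3 for Bub1, Laptm5, Mstn and Thbs2 and 2 of 3 for Cenpe.

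All 15 myotube markers were well above background on all 6 arrays, as the label gives. Of these 15, 5 were called higher at day 4 and none lower, 8 higher and 1 lower with the culture number as a block, and none in either direction without the arrays of culture 21 or of culture 26. Tnnt3, fast skeletal troponin T, was among them (1.92 ± 0.47, adjusted p = 0.0128), a call that ended without either array of culture 21 or the day 1 array of culture 26 (adjusted p from 0.054 to 0.081). Their summed linear level was 5100 to 8100 at day 4 and 2630 to 3860 at day 1, in units of each array's 75th percentile. The number of arrays limits the precision. The day 4 array of culture 21 was dim, with a 75th percentile of 208 intensity units and 39.1% of spots well above background. On the other day 4 arrays the 75th percentile was 440 and 580, and on the day 1 arrays it lay between 493 and 599. Across genes, which are not independent replicates, arrays of day 4 correlated at r from 0.931 to 0.968 and those of day 1 at r from 0.942 to 0.978. Each culture's day 4 and day 1 arrays lay on the same slide, so culture and slide cannot be told apart. On slide 3, which held both arrays of culture 28, 193 probes read over 8-fold lower than on the other slides. They stand for 112 tested genes, none of which was called. Such a probe widens the spread within both groups, so a call was unlikely from the start. The count therefore does not show whether the slide affected other calls, and smaller differences between slides were not counted.

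About as many genes fell as rose by day 4. In bulk RNA, fewer cells of a kind and less RNA per cell cannot be told apart. Of 18933 genes tested, 912 were higher at day 4 (4.82%) and 946 were lower (5.00%), which is 9.81% in either direction. Each list count below is to be read beside these shares. The median log2 difference over all genes tested was 0.06. Of the genes called higher, 911 had the same direction in all 3 cultures, and of those called lower, 940. The calls were made on these same arrays, so this agreement is largely set by the selection and is no replication. The changes were not of equal size in the cultures. The median of genes called higher was 2.39 in culture 21, 1.78 in culture 26 and 1.38 in culture 28. That of genes called lower was -1.80, -1.99 and -1.09, and that of all genes tested 0.214, -0.022 and -0.025. Without both arrays of culture 21, 300 genes were called higher and 362 lower. Without those of culture 26 there were 371 and 263, and without those of culture 28 there were 922 and 969. Leaving out 1 array moved the count of genes higher by over 1.5 times without the day 4 array of culture 21 (599) or the day 1 array of culture 21 (491) or 26 (590). It did so for genes lower without the day 1 array of culture 21 (591) or 26 (578) or the day 4 array of culture 26 (589).

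**Figure D1:**
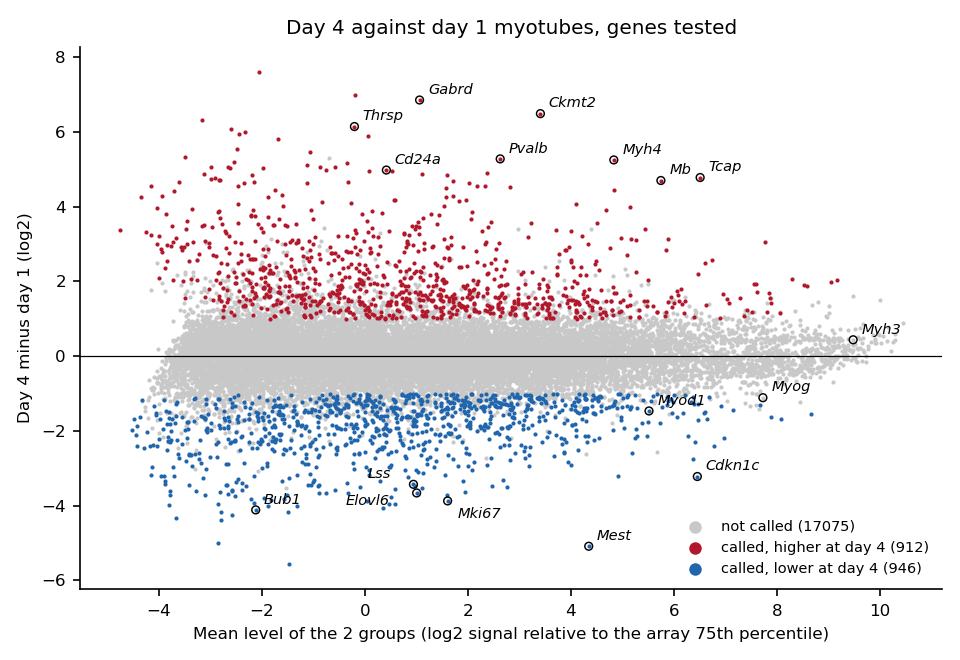
Each point is 1 of the 18933 genes tested, with its mean log2 level over both groups on the horizontal axis and the log2 difference, day 4 minus day 1, on the vertical axis. Red points are the 912 genes called higher at day 4 and blue points the 946 called lower. Myh4, Mb and Tcap rose by over 4 log2 units at high levels, whereas Myh3 and Myog lie in the grey band that was not called.

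Most adult fast fibre genes were called higher at day 4. Of the 16 listed members of the fast fibre sarcomere 15 were tested, 11 were called higher and none lower, with a median difference of 2.05 against 0.06 over all genes tested. All 15 tested members were above 0, from 0.37 for Mylk4 to 6.99 for Mybpc2, which was above background on 1 of the 3 day 1 arrays. The median was 2.98 in culture 21, 2.11 in culture 26 and 1.19 in culture 28. With the arrays of culture 21 or of culture 26 left out, 6 members were called higher, and 11 without those of culture 28. Myh4, the fastest myosin heavy chain (type 2B), is measured by a probe on chromosome 11, 67073834 to 67073893 of build mm9. Its promoter is printed because it holds both motifs searched in this list.

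The 250 bases before the RefSeq start of Myh4 (GRCm38.p6, chr11:67237562-67237811, plus strand), with an E-box CAGCTG and a MEF2 site in capitals:
Myh4: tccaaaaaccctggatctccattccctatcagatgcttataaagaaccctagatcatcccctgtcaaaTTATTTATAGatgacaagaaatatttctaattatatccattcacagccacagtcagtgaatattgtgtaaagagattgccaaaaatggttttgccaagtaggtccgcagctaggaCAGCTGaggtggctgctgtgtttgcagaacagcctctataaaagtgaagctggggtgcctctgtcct

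E-boxes are bound by MyoD family factors and MEF2 sites by the Mef2 factors. On both strands CAGCTG occurred before the start of 5 of the 11 listed fast fibre genes with a RefSeq promoter here and of 14.7% of all 27025 genes in the table. The MEF2 motif, which does not overlap it in Myh4, occurred in 4 of the 11 and in 3.42% of all. A match describes letters, not binding.

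Myh4 stood at 8.23, 7.16 and 6.99 at day 4 and at 2.06, 1.23 and 3.33 at day 1. The lowest day 4 array was thus well above the highest day 1 array, and the difference was 5.25 ± 0.72 (SE), a 38.1-fold change (adjusted p = 0.000245). Mybpc2, the fast isoform of myosin binding protein C that sits on the thick filament, stood at 4.61, 2.65 and 2.67 at day 4 and at -4.09, -4.77 and -2.19 at day 1 (6.99 ± 1.03, adjusted p = 0.000373), a size that rests on day 1 values mostly not above background. Pvalb, the calcium buffer parvalbumin of fast fibres, stood at 7.64, 4.04 and 4.13 at day 4 and -0.36, -0.45 and 0.78 at day 1 (5.28 ± 0.94, adjusted p = 0.00146). In both genes the day 4 array of culture 21 was the highest of its group. Myh2, the type 2A heavy chain, was 31.7-fold higher, at 0.89, 1.46 and 2.87 against -3.50, -3.56 and -2.68 (adjusted p = 0.000758). Myh1, the type 2X chain, was 3.80-fold higher, at 9.49, 7.76 and 8.43 at day 4 and 6.50, 6.16 and 7.24 at day 1 (adjusted p = 0.02). Its call ended without either array of culture 21 or the day 1 array of culture 26 (adjusted p from 0.076 to 0.12).

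**Figure D2:**
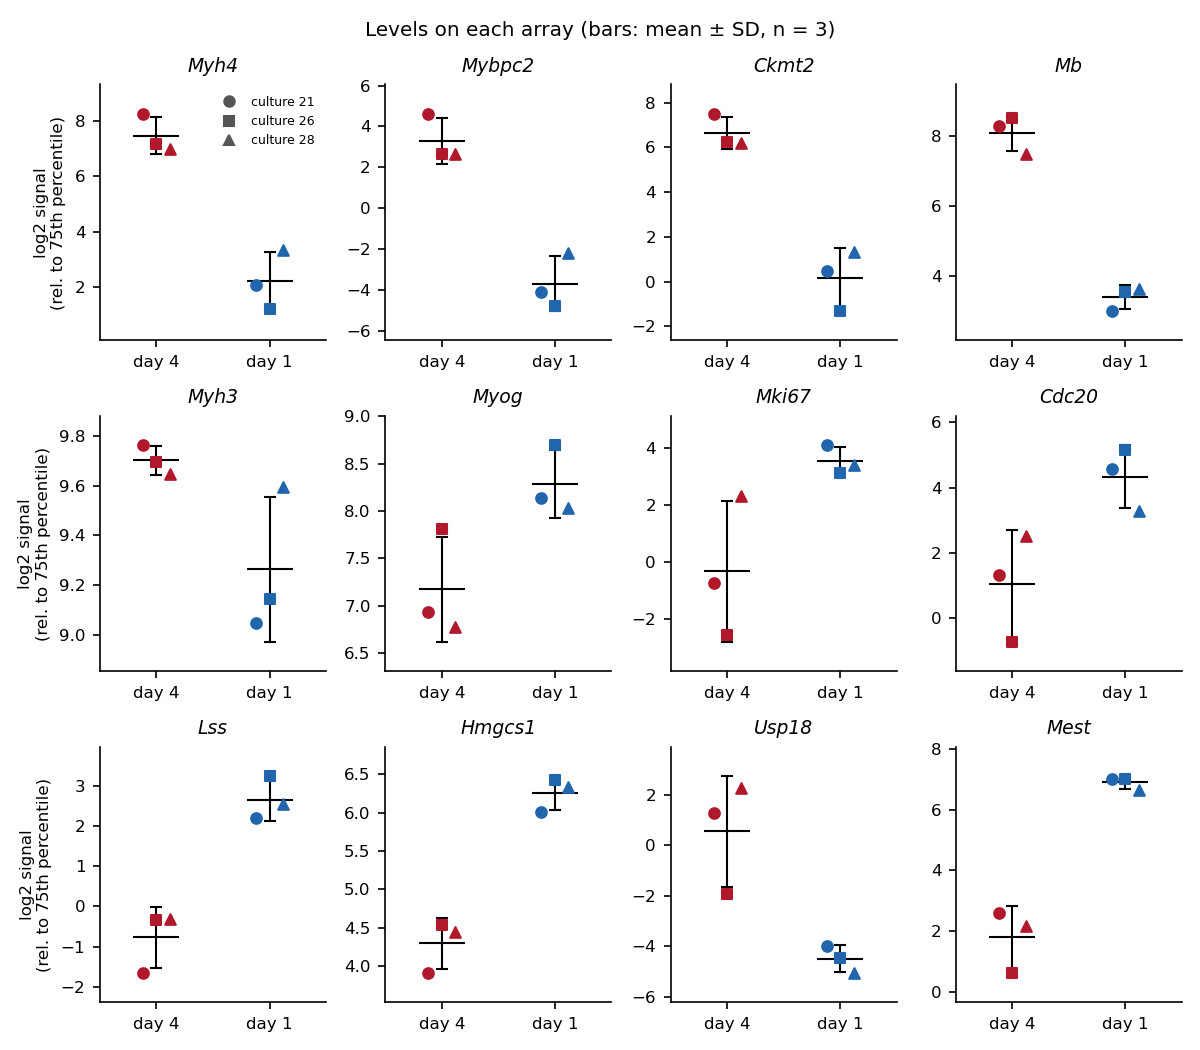
Log2 levels of 12 genes on each array, with day 4 on the left (red) and day 1 on the right (blue) in each panel; symbols mark the culture, and bars the mean ± SD of 3 arrays. The groups do not overlap in any of the 12 panels, but the gap is under 0.1 for Myh3, and the Mki67 and Cdc20 values of culture 28 lie closest together. Myh4, Ckmt2, Mki67 and Mest are among the top 10 genes by fold, which were picked only where the groups did not overlap. Of all called genes, 886 of the 912 higher and 908 of the 946 lower had no overlap. The calls were made on these same arrays, so this separation is largely set by the selection. The share without overlap over all genes tested was not counted.

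Embryonic and perinatal isoforms had a smaller median difference. Of the 14 genes of the developmental sarcomere, all tested, only Myh8 was called higher and none lower, although all 14 differences were above 0 (median 1.14). Beside that count, 7 were called higher with the culture number as a block. Myh8, the perinatal heavy chain, stood at 10.82, 9.51 and 9.84 at day 4 and at 7.75, 7.51 and 8.93 at day 1 (1.99 ± 0.46, adjusted p = 0.00883). Its call ended without the day 4 array of culture 21 or the day 1 array of culture 26 (adjusted p = 0.06 and 0.055). Myh3, the embryonic heavy chain, stood at 9.76, 9.70 and 9.64 at day 4 and 9.05, 9.14 and 9.60 at day 1. That is a difference of 0.44 ± 0.75 (adjusted p = 0.814). The pooled spread of Myh3 over the 7 groups of the fit is far wider than the spread within these 2 groups.

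Slow fibre genes gave 2 higher and 1 lower of 11 tested of 12 listed, with a median of 1.05. With the culture number as a block 5 were higher and none lower; when culture 21, 26 or 28 was left out in turn, 2, 1 and 2 were higher and 0, 0 and 1 lower. Mybpc1, slow myosin binding protein C, stood at 6.54, 5.95 and 7.39 at day 4 and 2.51, 1.77 and 3.90 at day 1 (3.90 ± 0.57, adjusted p = 0.000328). Myl2, the slow and cardiac regulatory light chain, was 28.7-fold higher, at 2.53, 6.13 and 3.42 against -1.86, -0.34 and -0.25 (adjusted p = 0.00965). Culture 26 was the highest in day 4 for Myl2, and the call ended without its day 4 array or the day 1 array of culture 21 (adjusted p = 0.063 and 0.056). Myh7, the slow heavy chain, stood at 4.29, 6.54 and 7.20 at day 4 and 5.04, 5.39 and 5.68 at day 1, with overlap (0.64 ± 1.84, adjusted p = 0.899). Its SD was 1.525 at day 4, 0.319 at day 1 and 6.284 in quadriceps, which is part of the pooled spread. Tpm3, a tropomyosin, was called lower at -1.05 ± 0.29 (adjusted p = 0.0252), but its probes disagree. The other probe gave 3.81 (adjusted p = 0.16), the call ended with the culture number as a block (adjusted p = 0.079), and it ended without any array of cultures 21 or 26 (adjusted p from 0.069 to 0.13).

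Some genes of the proteins that hold sarcomeres together were higher at day 4. Of 39 genes of the sarcomere scaffold and Z disc, all tested, 16 were called higher and none lower, with a median of 1.22. Without the arrays of culture 21 or of culture 26 only 4 were called higher, and 13 without those of culture 28. Tcap, telethonin, which caps titin at the Z disc, stood at 9.42, 9.19 and 8.10 at day 4 and 3.86, 3.93 and 4.58 at day 1 (4.78 ± 0.69, adjusted p = 0.000312). Myot, the Z disc protein myotilin, stood at 5.33, 4.49 and 4.65 at day 4 and 0.46, -1.24 and 0.56 at day 1 (4.89 ± 0.79, adjusted p = 0.000741). Both were over 25-fold higher with groups far apart. Igfn1, an immunoglobulin and fibronectin repeat protein of the Z disc region, was above background on no day 1 array and stood at 1.84, 2.44 and 0.99 at day 4, at least 77.5-fold higher (adjusted p = 8.44e-05). The markers Actn2 and Des, which encode the Z disc crosslinker alpha-actinin and the intermediate filament desmin, were called at differences of 2.19 and 1.42 (adjusted p = 0.0337 and 0.0484). The call of Actn2 ended without 5 of the 6 arrays, all but the day 1 array of culture 28 (adjusted p from 0.061 to 0.15). That of Des ended without all but the day 4 array of culture 28 (adjusted p from 0.054 to 0.22). A second probe of Actn2 gave 1.39 and was not called.

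Among genes of excitation-contraction coupling few were called, but most differences were above 0. Of 23 tested of 26 listed genes of this group, the steps from membrane potential to calcium release, 5 were higher and none lower (median 1.00). Differences were above 0 for 22 genes and below for 1, with a median of 1.37, 1.23 and 0.67 in cultures 21, 26 and 28. Clcn1, the chloride channel that stabilises the resting muscle membrane, was above background on no day 1 array and at least 4.36-fold higher (-1.78, -2.66 and -2.63 at day 4, adjusted p = 0.00399). Sypl2, the triad protein mitsugumin 29, was 8.48-fold higher (adjusted p = 0.0197). Its call ended without either array of culture 21, the day 1 array of culture 26 or the day 4 array of culture 28 (adjusted p from 0.054 to 0.1). Without the arrays of culture 21 or of culture 26, 1 gene of this list was called, 7 without those of culture 28, and 8 with the culture number as a block.

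Of 18 genes of the neuromuscular junction, all tested, 4 were higher and none lower, with 9 differences above 0 and 9 below. Without the arrays of culture 26, 2 were called higher, and 3 without those of culture 21 or of culture 28. Chrne, the adult epsilon subunit of the acetylcholine receptor, was above background on no day 1 array and stood at -1.69, -1.18 and -0.96 at day 4 (at least 9.46-fold higher, adjusted p = 0.000438). Chrng, the fetal gamma subunit that epsilon replaces in adult muscle, stood at 4.09, 3.52 and 4.30 at day 4 and 3.58, 3.55 and 4.82 at day 1 (-0.01 ± 0.51, adjusted p = 0.996). The day 4 and day 1 arrays overlap for the fetal subunit and lie far apart for the adult one; the difference between the subunits was not tested. Colq, the collagen tail that anchors acetylcholinesterase, was 6.05-fold higher, at 3.69, 3.32 and 4.45 against 1.63, 0.90 and 1.13 (adjusted p = 0.00125). In the dystrophin glycoprotein complex, which links the cytoskeleton to the matrix, 2 of 18 tested were higher and none lower, 1, 0 and 0 without the arrays of culture 21, 26 or 28, and 4 with the culture number as a block. These were Sgcd, delta-sarcoglycan (3.34 ± 0.86, adjusted p = 0.0174), and Cav3, muscle caveolin (1.70 ± 0.52, adjusted p = 0.0425). The call of Sgcd ended without the day 1 array of culture 26 or 28 (adjusted p = 0.087 and 0.066). That of Cav3 ended without all but the day 1 array of culture 28 (adjusted p from 0.065 to 0.16). Of the further probes of Sgcd, 1 gave 3.37 and was called, and 1 gave 2.90 and was not.

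Genes of energy buffering and of mitochondria that are particular to striated muscle had some of the largest rises. Ckmt2, the mitochondrial creatine kinase of sarcomeric muscle, stood at 7.50, 6.26 and 6.21 at day 4 and 0.47, -1.30 and 1.32 at day 1, 89.8-fold higher (6.49 ± 1.10, adjusted p = 0.00102). Mb, the oxygen store myoglobin, stood at 8.29, 8.51 and 7.50 at day 4 and 3.01, 3.54 and 3.64 at day 1 (4.70 ± 0.64, adjusted p = 0.000238). The groups were far apart in both genes. Mb was the 1 gene called among 14 tested genes of oxygen binding and hypoxia. Of 42 tested genes of oxidative phosphorylation and the TCA cycle, 7 were higher and none lower, with a median of 0.65. The largest rises were those of the heart and muscle isoforms of cytochrome c oxidase. Cox7a1 was 21.9-fold higher, at 8.08, 7.04 and 6.09 against 2.84, 2.33 and 2.68 (adjusted p = 0.000983), and Cox6a2 was 8.32-fold higher (adjusted p = 0.00335). Without the arrays of culture 21, 1 gene of this list was called, 2 without those of culture 26 and 9 without those of culture 28. With the culture number as a block 3 were called.

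Of 27 tested genes of fatty acid uptake and oxidation 7 were higher, 1 was lower and the others were not called (median 0.67), and 4 were higher without the arrays of culture 21, 5 without those of culture 26 and 8 without those of culture 28. Pdk4, the kinase that shuts pyruvate out of the TCA cycle, stood at 4.14, 3.70 and 3.85 at day 4 and -0.42, 0.58 and 0.51 at day 1 (3.67 ± 0.39, adjusted p = 4.75e-05). Ucp3, the muscle uncoupling protein, stood at 2.22, 0.85 and 0.73 at day 4 and -2.47, -1.51 and -1.91 at day 1 (3.23 ± 0.53, adjusted p = 0.000828). Cpt1a, the liver isoform of carnitine palmitoyltransferase, fell, to -0.05, -0.64 and 0.27 at day 4 against 1.48, 1.26 and 1.86 at day 1 (-1.68 ± 0.33, adjusted p = 0.00272). The muscle isoform Cpt1b, named after its values were seen, rose (3.20, adjusted p = 0.00213). Among nuclear receptors and PGC-1 partners 2 of 19 tested were higher, 1 without the arrays of culture 21 or of culture 28: Esrrb, an estrogen-related receptor (3.45 ± 0.60, adjusted p = 0.00125), and Nr4a1 (2.53 ± 0.56, adjusted p = 0.00681). Ppargc1a, the coactivator PGC-1 alpha, stood at 1.54, 1.33 and 2.16 at day 4 and 1.19, -0.23 and 1.06 at day 1 and was not called (1.01 ± 0.49, adjusted p = 0.227).

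In glycolysis and glycogen metabolism 9 genes were higher and 3 lower of 33 tested (median 0.90). When culture 21, 26 or 28 was left out in turn, 4, 3 and 7 were higher and 1, 1 and 2 lower. The glycogen-targeting subunits of protein phosphatase 1, Ppp1r3c and Ppp1r3a, rose by 3.92 ± 1.14 and 3.51 ± 0.85 (adjusted p = 0.0338 and 0.0122). The call of Ppp1r3a ended without the day 1 array of culture 26 (adjusted p = 0.08). That of Ppp1r3c ended without the day 1 array of culture 26 or 28 or the day 4 array of culture 21 or 28 (adjusted p from 0.053 to 0.16). Pgm2, a phosphoglucomutase, was above background on no day 4 array and at least 3.91-fold lower (adjusted p = 0.000508). Pfkl, the liver isoform of phosphofructokinase, was 2.96-fold lower (adjusted p = 0.039). Its call ended without any of 4 arrays, those of day 1 of cultures 21 and 26 and of day 4 of cultures 26 and 28 (adjusted p from 0.075 to 0.17). The median of this list was 0.49 with quantile normalization and 0.44 with the authors' values. Of 10 tested creatine and phosphagen genes 2 were higher and 1 lower; without the arrays of culture 21 or of culture 26, 1 was higher, without those of culture 28, 2, and none was lower, and with the culture number as a block 4 were higher and 1 lower. Gatm, which makes the creatine precursor, was lower (-1.88 ± 0.51, adjusted p = 0.022), and Adssl1, the muscle adenylosuccinate synthase of the purine nucleotide cycle, higher (1.44 ± 0.41, adjusted p = 0.028). The call of Gatm ended without any day 4 array or the day 1 array of culture 21 (adjusted p from 0.052 to 0.14). That of Adssl1 ended without either array of culture 21 or the day 1 array of culture 26 (adjusted p from 0.1 to 0.13).

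Most genes of sterol and fatty acid synthesis were called lower at day 4. Cells make cholesterol from acetyl-CoA through HMG-CoA reductase and a long series of further steps, and the transcription factors Srebf1 and Srebf2 drive most of these genes when sterols are scarce. Of the 24 listed genes, all tested, 18 were called lower and none higher, with a median of -2.12 against 0.06 over all genes tested. The medians within cultures were close, at -2.21 in culture 21, -2.20 in culture 26 and -1.81 in culture 28. When culture 21, 26 or 28 was left out in turn, 13, 12 and 17 genes were called lower. The promoter of Hmgcs1, HMG-CoA synthase, is printed because it alone among the 14 list members with a RefSeq promoter here held the motif searched. The gene was chosen for that after its values were seen.

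The 250 bases before the RefSeq start of Hmgcs1 (GRCm38.p6, chr13:119690101-119690350, plus strand), with the sterol regulatory element TCACNCCAC in capitals:
Hmgcs1: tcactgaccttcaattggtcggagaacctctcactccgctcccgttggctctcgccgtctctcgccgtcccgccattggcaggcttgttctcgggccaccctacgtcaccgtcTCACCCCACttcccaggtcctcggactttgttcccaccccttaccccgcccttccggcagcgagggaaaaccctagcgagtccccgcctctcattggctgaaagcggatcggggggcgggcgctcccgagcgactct

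The motif TCACNCCAC, which SREBP factors bind, occurred on either strand before the start of 1.22% of all 27025 genes in the table. Hmgcs1 stood at 3.91, 4.54 and 4.44 at day 4 and 6.00, 6.42 and 6.33 at day 1 (-1.96 ± 0.31, adjusted p = 0.000716). Lss, lanosterol synthase, which closes the sterol rings, stood at -1.66, -0.35 and -0.31 at day 4 and 2.19, 3.24 and 2.54 at day 1. That was a 10.8-fold fall (-3.43 ± 0.33, adjusted p = 2.36e-05), and the lowest day 1 array lay above the highest day 4 array. Elovl6, which elongates palmitate, fell 12.6-fold, to -1.37, -0.73 and -0.37 at day 4 against 2.80, 2.85 and 2.85 at day 1 (adjusted p = 0.000107). The calls of Lss, Elovl6 and Hmgcs1 held without each array in turn. The 6 genes not called were Fdps, Scd2, Acaca, Srebf1, Dhcr7 and Scd1, with differences from -1.15 to 0.52. Srebf2 was among those called lower (-1.58 ± 0.32, adjusted p = 0.00373), whereas Srebf1 was not called (-0.60 ± 0.35, adjusted p = 0.327); the difference between them was not tested.

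Genes of mitosis had the largest median change of the lists, and it differed between cultures. Proliferating cells express cyclins, kinetochore proteins and mitotic kinases in G2 and M phase, and differentiating myoblasts silence them as they leave the cycle. Of 30 listed genes of the cell cycle and mitosis 26 were tested, and all 26 tested were called lower, with a median of -3.21. The remaining 4, Aurkb, Cdk1, Cenpf and Ttk, were not well above background on all arrays of either group, and a gene expressed at day 1 alone could pass the filter only by being high there, so the count is a description. The median was -3.13 in culture 21 and -5.62 in culture 26, but -0.64 in culture 28. The median level of the list was -0.94, -2.71 and 0.25 at day 4 in cultures 21, 26 and 28, and 2.52, 2.76 and 1.06 at day 1, so culture 28 was the highest at day 4 and the lowest at day 1. With no arrays of culture 21, 10 genes were called lower, without those of culture 26, 6, and without those of culture 28, 26.

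**Figure D3:**
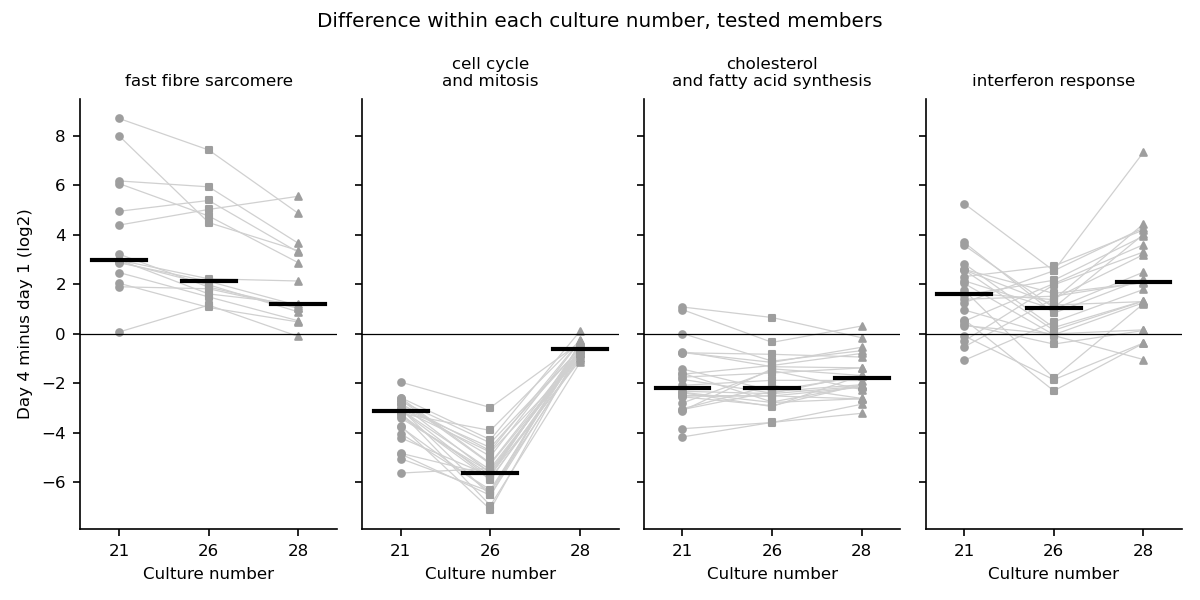
Differences between the day 4 and the day 1 array of each culture number for the tested members of 4 gene lists, in log2 units. Grey points joined by a line are 1 gene, and black bars are the median of the list in that culture, which for cell cycle genes are -3.13, -5.62 and -0.64, and for cholesterol and fatty acid synthesis are -2.21, -2.20 and -1.81.

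Mki67, which encodes the proliferation antigen Ki-67, is measured on chromosome 7, 142884764 to 142884823 of build mm9. It was the most changed gene of the list whose promoter holds the cell cycle motif, which is why the promoter is shown.

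The 250 bases before the RefSeq start of Mki67 (GRCm38.p6, chr7:135716380-135716629, minus strand), with 2 copies of TTTGAA and 3 CCAAT boxes (CCAAT or its reverse complement) in capitals:
Mki67: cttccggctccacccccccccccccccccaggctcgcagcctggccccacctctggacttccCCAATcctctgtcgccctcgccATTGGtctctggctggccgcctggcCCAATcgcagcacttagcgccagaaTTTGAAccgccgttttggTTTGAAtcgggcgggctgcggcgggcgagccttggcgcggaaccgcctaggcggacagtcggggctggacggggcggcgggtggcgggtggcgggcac

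TTTGAA is the cell cycle genes homology region, which the DREAM complex and B-Myb read, and CCAAT is bound by NF-Y. On both strands TTTGAA occurred before the start of 8 of the 25 listed genes with a RefSeq promoter here, against 18.3% of all 27025 genes. CCAAT occurred in 18 of the 25, against 37.5% of all.

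Mki67 stood at -0.73, -2.58 and 2.32 at day 4 and 4.10, 3.13 and 3.40 at day 1 (-3.87 ± 0.89, adjusted p = 0.00884). The day 4 array of culture 28 was within about 1 log2 unit of its day 1 array, while the other two cultures fell by over 4. The call ended without the day 4 array of culture 26 (adjusted p = 0.056). Ccnb1, cyclin B1, which drives entry into mitosis, showed the same order of cultures, at -0.33, -2.77 and 1.17 at day 4 and 3.44, 3.64 and 1.55 at day 1 (-3.52 ± 0.75, adjusted p = 0.00508). Bub1, a spindle checkpoint kinase, stood at -4.53, -6.25 and -1.74 at day 4 and 0.52, 0.13 and -0.83 at day 1 (-4.11 ± 0.75, adjusted p = 0.00168), and was above background on 1 of the 3 day 4 arrays. Cenpa, the centromeric histone, and Cenpe, a kinetochore motor, fell by 3.77 ± 0.85 and 3.96 ± 0.99 (adjusted p = 0.00789 and 0.0144). The call of Cenpa ended without either array of culture 26 (adjusted p = 0.052 and 0.053), and that of Cenpe without either array of culture 21 or the day 4 array of culture 26 (adjusted p from 0.071 to 0.09). Pimreg, a mitotic regulator among the most changed genes of all, fell by 3.56 ± 0.69 (adjusted p = 0.00257).

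DNA replication genes followed with smaller changes. Of 33 tested of 35 listed, 21 were lower and none higher, with a median of -1.49, and all 33 were below 0. Within cultures the median was -1.55, -2.43 and -0.38. Leaving aside the arrays of culture 21, 6 were called, without those of culture 26, 1, and without those of culture 28, 26. Uhrf1, which recruits Dnmt1 to replicating DNA, stood at 0.52, -1.66 and 0.63 at day 4 and 3.1, 3.20 and 1.43 at day 1 (-2.75 ± 0.61, adjusted p = 0.00724). Tk1, thymidine kinase, fell by 2.65 ± 0.60 (adjusted p = 0.00788), with the day 4 array of culture 21 above the day 1 array of culture 28. It was no longer called without the day 1 array of culture 26 (adjusted p = 0.054).

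Of 20 genes of cell cycle exit, which include the inhibitors that hold myotubes out of the cycle, all tested, 2 were lower and none higher. When culture 21, 26 or 28 was left out in turn, 2, 0 and 1 were lower. Ccnd1, cyclin D1, which drives G1 and opposes MyoD, fell, to 3.24, 1.90 and 2.80 at day 4 against 5.64, 4.76 and 3.88 at day 1 (-2.12 ± 0.43, adjusted p = 0.00408). Cdkn1a, the inhibitor p21, stood at 8.41, 8.03 and 7.69 at day 4 and 7.04, 7.68 and 7.48 at day 1 (0.64 ± 0.48, adjusted p = 0.482). Cdkn1c, the inhibitor p57, was 9.33-fold lower, at 6.01, 3.50 and 5.02 at day 4 and 8.31, 7.09 and 8.80 at day 1 (adjusted p = 0.00918). The call ended without the day 4 array of culture 26 (adjusted p = 0.06).

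Among the regulators of the muscle programme Myod1 was lower and Mef2c higher at day 4. Of 14 tested myogenic transcription factors 1 was higher and 4 lower, with a median of -0.34. With no arrays of culture 21, 1 was called higher and none lower, without those of culture 26 none, and without those of culture 28, 1 higher and 2 lower. Myod1, the determination factor, stood at 4.80, 5.00 and 4.56 at day 4 and 6.31, 6.62 and 5.83 at day 1 (-1.47 ± 0.36, adjusted p = 0.0136). It was no longer called without the day 1 array of culture 21 or 26 (adjusted p = 0.053 and 0.071). Myog, which drives terminal differentiation, was lower in each culture, at 6.93, 7.81 and 6.78 against 8.13, 8.70 and 8.03, but was not called (-1.11 ± 0.52, adjusted p = 0.206). With the culture number as a block it was called lower (adjusted p = 0.044).

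Mef2c, which works with MyoD factors on late muscle genes, stood at 3.05, 3.63 and 3.92 at day 4 and 1.51, -0.27 and 2.05 at day 1 (2.44 ± 0.53, adjusted p = 0.00591). Myf6, the MyoD family member of mature fibres, stood at 3.59, 0.09 and 2.13 at day 4 and -0.67, -3.15 and -0.26 at day 1. It was not called (3.30 ± 1.11, adjusted p = 0.0677), and it was with the culture number as a block (adjusted p = 0.0015). Myf5, active in myoblasts, was above background on no array of either group. Vgll2, a cofactor of TEAD proteins in muscle, and Tcf12, a bHLH partner of MyoD, were lower (-2.30 ± 0.66 and -1.57 ± 0.46, adjusted p = 0.0316 and 0.0347). The call of Vgll2 ended without either array of culture 21, the day 4 array of culture 26 or the day 1 array of culture 28 (adjusted p from 0.073 to 0.16). That of Tcf12 ended without either array of culture 21, the day 1 array of culture 26 or the day 4 array of culture 28 (adjusted p from 0.056 to 0.16).

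Of 14 tested of 16 listed markers of satellite cells and unfused reserve cells, 3 were lower and none higher, with 12 differences below 0 and a median of -0.76. Leaving aside the arrays of culture 21 or of culture 28, 2 were called lower, and 0 without those of culture 26. Pax7, the satellite cell factor, stood at 0.68, 0.86 and -0.02 at day 4 and 1.63, 2.37 and 2.48 at day 1 (-1.65 ± 0.41, adjusted p = 0.0147). Hey1, a Notch target, stood at -0.65, -1.46 and -1.48 at day 4 and 0.85, 0.94 and 0.40 at day 1 (-1.93 ± 0.38, adjusted p = 0.00282). The call of Pax7 ended without the day 1 array of culture 26 or either array of culture 28 (adjusted p from 0.052 to 0.063). Dll1, a Notch ligand that differentiating myoblasts present to their neighbours, fell, to -0.05, -0.23 and 0.01 at day 4 against 2.16, 2.56 and 2.43 at day 1 (-2.47 ± 0.42, adjusted p = 0.00103). Of the 13 tested genes of the Id proteins and the Notch pathway 2 were lower and none higher, and 1 was lower without the arrays of culture 21 or of culture 26. Dtx4, a Deltex ubiquitin ligase, was the other (-1.27 ± 0.34, adjusted p = 0.0225), and its call ended without any day 1 array or the day 4 array of culture 26 (adjusted p from 0.052 to 0.09). Id1, an inhibitor of bHLH factors, stood at 1.76, 1.32 and 1.39 at day 4 and 3.59, 3.22 and -0.15 at day 1 (-0.73 ± 0.79, adjusted p = 0.667), with the day 1 array of culture 28 apart from the other two.

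Genes of myoblast fusion gave 2 higher and 2 lower of 18 tested. With the culture number as a block 4 were lower; when culture 21, 26 or 28 was left out in turn, 0, 1 and 1 were higher and 0, 0 and 1 lower. Mymk, myomaker, which acts before the membranes merge, stood at 7.51, 7.42 and 7.75 at day 4 and 6.75, 7.30 and 8.03 at day 1 (0.20 ± 0.56, adjusted p = 0.896). Mymx, myomixer, which acts with it, stood at 6.17, 7.10 and 6.05 at day 4 and 7.60, 7.64 and 7.65 at day 1 (-1.19 ± 0.57, adjusted p = 0.216). Dock1, which activates Rac during fusion, fell by 1.49 ± 0.33 and its relative Dock5 rose by 1.86 ± 0.42 (adjusted p = 0.00698 and 0.00733). Jam3, a junctional adhesion molecule, fell by 1.35 ± 0.36 (adjusted p = 0.0197), and its call ended without the day 4 array of culture 21 or 26 or the day 1 array of culture 28 (adjusted p from 0.082 to 0.1).

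In the insulin-like growth factor axis 1 of 12 tested genes was lower and none higher, and none was without the arrays of culture 21 or of culture 26. Igfbp3, a binding protein, fell by 2.06 ± 0.52 (adjusted p = 0.0165), and its call ended without any array of cultures 21 or 26 (adjusted p from 0.062 to 0.089). Igf2, an imprinted growth factor that myoblasts make on differentiation, stood at 5.26, 3.70 and 4.06 at day 4 and 4.22, 4.22 and 4.51 at day 1 (0.02 ± 0.53, adjusted p = 0.993). H19, the RNA of the same imprinted domain, stood at 11.55, 10.58 and 9.63 at day 4 and 10.07, 10.38 and 9.56 at day 1 (0.58 ± 0.68, adjusted p = 0.698). The day 4 array of culture 21 was the highest for both. Among imprinted genes, Mest, a hydrolase of mesodermal tissues, had the largest fall among the named genes above background on all 6 arrays. It stood at 2.61, 0.64 and 2.16 at day 4 and 7.01, 7.01 and 6.65 at day 1, 34.0-fold lower (-5.09 ± 0.61, adjusted p = 8.44e-05).

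Secreted signals and early response genes changed in part. Of 21 tested immediate early genes, which respond within minutes to depolarisation or growth factors, 6 were higher and none lower (median 0.97). Egr1 stood at 4.46, 3.24 and 4.24 at day 4 and 0.79, 1.91 and 0.68 at day 1 (2.85 ± 0.51, adjusted p = 0.00157), and Egr2 at 0.57, -0.51 and 1.61 against -4.77, -2.88 and -3.63 (4.31 ± 0.96, adjusted p = 0.00702). When culture 21, 26 or 28 was left out in turn, 1, 3 and 2 genes of this list were called higher. Arc, an activity-induced gene best known from neurons, stood at 3.02, 1.64 and 4.39 at day 4 and -1.94, -1.29 and -2.62 at day 1 (4.96 ± 0.58, adjusted p = 7.59e-05).

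In the Wnt pathway 3 of 20 tested genes were higher and 1 lower, and 7 higher and 2 lower with the culture number as a block. Wnt10a, a ligand, stood at 2.41, 4.25 and 2.36 at day 4 and -3.27, -2.35 and -3.01 at day 1 (5.88 ± 1.01, adjusted p = 0.00114). Wif1, which binds and inhibits Wnt ligands, rose too, at -0.28, -0.97 and 1.77 against -5.35, -4.93 and -3.16 (4.65 ± 0.92, adjusted p = 0.00313). Tcf7l2, a nuclear effector, fell by 1.82 ± 0.34 (adjusted p = 0.00223), although its second probe gave a fall of 0.63 that was not called. Of 22 tested myokines and TGF beta factors 3 were higher and none lower, none without the arrays of culture 21 or of culture 26 and 2 without those of culture 28. Il15, a muscle cytokine, was above background on no day 1 array and at least 5.02-fold higher (adjusted p = 0.00271). Fstl3, an activin and myostatin antagonist, rose by 1.97 ± 0.50 (adjusted p = 0.0159), and its call ended without the day 1 array of culture 21 or 26 or the day 4 array of culture 28 (adjusted p from 0.055 to 0.071). Mstn, myostatin, stood at -2.24, -4.27 and -2.60 at day 4 and 0.01, -3.03 and -0.75 at day 1. It was lower in each culture but not called (-1.78 ± 1.02, adjusted p = 0.321), whereas with the culture number as a block it was (adjusted p = 0.011). Cxcl12, a chemokine that guides myoblasts, fell by 2.81 ± 0.61 (adjusted p = 0.00611), although its second probe gave -2.23 and was not called. It was 1 of 2 falls among 15 tested chemokines and cytokines. The other, Il33, was above background on no day 4 array and at least 2.80-fold lower (adjusted p = 0.0145). The call of Il33 ended without the day 1 array of culture 21 or the day 4 array of culture 26 (adjusted p = 0.099 and 0.07). No chemokine or cytokine was called without the arrays of culture 21 or of culture 26. Without those of culture 28, 2 were higher and 2 lower.

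Interferon-stimulated genes, which cells switch on through STAT and IRF factors when they sense interferon, had a median of 1.66 over 24 tested of 29 listed. Of these 5 were called higher and none lower, and 12 were called higher with the culture number as a block. With no arrays of culture 21 none was called, 5 without those of culture 26 and 1 without those of culture 28. Bst2, tetherin, is shown because it is the called member whose promoter holds the motif searched, and it was chosen for that after its values were seen.

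The 250 bases before the RefSeq start of Bst2 (GRCm38.p6, chr8:71537473-71537722, minus strand), with 2 overlapping interferon-stimulated response elements, read on the opposite strand, in capitals:
Bst2: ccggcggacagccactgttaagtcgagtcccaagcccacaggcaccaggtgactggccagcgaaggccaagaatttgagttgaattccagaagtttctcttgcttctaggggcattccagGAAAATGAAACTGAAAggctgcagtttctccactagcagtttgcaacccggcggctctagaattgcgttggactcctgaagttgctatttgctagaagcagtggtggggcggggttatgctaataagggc

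The element, matched as 2 runs of TTTC with any 2 bases between them, occurred on either strand before the start of 10 of the 23 listed genes with a RefSeq promoter here, against 3.46% of all 27025 genes. Bst2 stood at 5.56, 2.80 and 4.71 at day 4 and 1.88, 1.98 and 2.50 at day 1 (2.24 ± 0.65, adjusted p = 0.033). Usp18, which trims ISG15 from proteins and dampens the receptor, was above background on no day 1 array and stood at 1.27, -1.93 and 2.27 at day 4, at least 28.4-fold higher (adjusted p = 0.00563). Irf7, a transcription factor of the response, stood at 0.15, -2.26 and 0.77 at day 4 and -3.42, -3.31 and -3.24 at day 1 (2.87 ± 0.84, adjusted p = 0.034). In all 3 genes culture 26 was the lowest at day 4. The call of Bst2 ended without either array of culture 21, the day 1 array of culture 26 or the day 4 array of culture 28 (adjusted p from 0.079 to 0.18). That of Irf7 ended without all but the day 4 array of culture 26 (adjusted p from 0.07 to 0.13). Ifit1, Isg15 and Rsad2, named after their values were seen, were high in culture 21 already at day 1 (0.82, 4.77 and 1.60) and were not called. The part of immune cells was not tested. Of the 15 leukocyte markers, Ptprc, Cd68, Lyz2, Tyrobp, Cd52 and Ms4a1 were above background on no array of either group. Beside them, 4 were above background on all day 4 arrays and 6 on all day 1 arrays. The day 4 arrays include the dim one of culture 21. The summed level of the list was 49.4 to 74.1 at day 4 and 29.0 to 34.3 at day 1.

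Few matrix genes were called, and in both directions. Of 31 tested collagens and matrix genes 2 were higher and 2 lower, and of 20 tested proteases and inhibitors likewise 2 and 2. Over all genes tested 4.82% were higher and 5.00% lower. The median difference was -0.08 for the matrix list and -0.19 for the protease list. Leaving aside the arrays of culture 21 or of culture 26 no matrix gene and 1 protease gene, a fall, was called; with the culture number as a block 5 matrix genes were higher and 4 lower, and 4 and 3 protease genes. Postn, periostin, a matricellular protein of growing tissue, was above background on no day 1 array and at least 8.10-fold higher (adjusted p = 0.00408). Lox, which crosslinks collagen, was above background on no day 1 array and at least 8.57-fold higher (adjusted p = 0.0307). That call ended without all but the day 1 array of culture 28 (adjusted p from 0.051 to 0.11). Adamts4, an aggrecanase, fell by 2.25 ± 0.35, to 2.84, 3.00 and 4.13 at day 4 against 5.63, 5.47 and 5.62 at day 1 (adjusted p = 0.000508). Thbs2 and Nid2, a thrombospondin and a nidogen of basement membranes, fell by 2.34 ± 0.58 and 2.02 ± 0.54 (adjusted p = 0.0144 and 0.0218). The call of Thbs2 ended without the day 1 array of culture 21 or 28 or the day 4 array of culture 26 (adjusted p from 0.051 to 0.079). That of Nid2 ended without the day 1 array of culture 26 or 28 or the day 4 array of culture 21 or 26 (adjusted p from 0.071 to 0.11). Timp3, an inhibitor of these proteases, rose by 3.09 ± 0.96 (adjusted p = 0.0465), and its call ended without either array of culture 21, the day 1 array of culture 26 or the day 4 array of culture 28 (adjusted p from 0.12 to 0.17).

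Markers of other cell types that a myoblast preparation can hold were counted beside these. Of the 15 fibroblast markers 8 were tested and 1 was higher, Ly6a, which encodes Sca-1 (2.64 ± 0.64, adjusted p = 0.0125). On all day 1 arrays 8 of the 15 were above background, and on all day 4 arrays 4. The day 4 counts, here and below, include the dim array of culture 21, with 39.1% of spots well above background. Its part in lower counts at day 4 was not tested. Pdgfra, Tcf21, Dpt, Dpp4, Lum, Mfap5 and Twist2 were above background on no array of either group. The call of Ly6a ended without either array of culture 21 (adjusted p = 0.079 and 0.069). The summed level of the fibroblast list was 5.08 to 6.98 at day 4 and 4.53 to 6.08 at day 1. Of 9 tested markers of smooth muscle and pericytes 2 were higher, Des and Cspg4, and 2 lower, Rgs5 and Notch3. Des is also a myotube marker, described above. The call of Cspg4 (2.11 ± 0.54, adjusted p = 0.0171) ended without the day 1 array of culture 21 or 26 or the day 4 array of culture 28 (adjusted p from 0.057 to 0.088), and that of Notch3 (-1.30 ± 0.41, adjusted p = 0.0471) without each of the 6 arrays (adjusted p from 0.057 to 0.16). Rgs5, a pericyte regulator of G protein signalling, was above background on no day 4 array and at least 10.8-fold lower (adjusted p = 0.000151), and Myh11 was above background on no array. Of the 14 listed, 8 were above background on all day 4 arrays and 9 on all day 1 arrays. The sum of this list was 538 to 694 at day 4 and 613 to 967 at day 1. Endothelial markers gave no call over 7 tested, and Cdh5 and Tie1 were above background on no array. On all day 4 arrays 5 of the 15 endothelial markers were above background, and on all day 1 arrays 7. Their summed level was 11 to 44.0 at day 4 and 11.9 to 17.6 at day 1. The sum of the leukocyte markers was 49.4 to 74.1 at day 4 and 29.0 to 34.3 at day 1, and 1 of 6 tested was called lower, Laptm5, a lysosomal protein (-2.89 ± 0.88, adjusted p = 0.0414). The call ended without the day 1 array of culture 21 or 28 or the day 4 array of culture 21 or 26 (adjusted p from 0.098 to 0.22). The sum of the adipocyte markers was 14.9 to 25.8 at day 4 and 10.0 to 18.2 at day 1, and 1 of 4 tested was lower. The sum of the Schwann cell markers was 4.16 to 10.6 at day 4 and 6.81 to 12 at day 1, and 1 of 7 tested was lower. Adipoq, Fabp4 and S100b were above background on no array. Of 12 adipocyte markers 3 were above background on all day 4 arrays and 4 on all day 1 arrays. For 12 Schwann cell markers these counts were 5 and 7. The part of such cells in the results above was not tested.

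Among genes of DNA methylation, which the series set out to follow, 2 were higher and 3 lower of 23 tested (median -0.08), and none was called without the arrays of culture 21 or of culture 26. Dnmt3a, a de novo methyltransferase, stood at 2.32, 1.31 and 1.33 at day 4 and -0.38, -0.79 and 0.41 at day 1 (1.91 ± 0.43, adjusted p = 0.00828). It was no longer called without the day 4 array of culture 21 or the day 1 array of culture 26 (adjusted p = 0.055 and 0.053). Dnmt1, the maintenance enzyme, stood at -0.66, -1.38 and -0.53 at day 4 and 0.49, 0.39 and -0.10 at day 1 (-1.11 ± 0.30, adjusted p = 0.0231). It was not called with the culture number as a block (adjusted p = 0.074), nor without the day 1 array of culture 21 or 26 or the day 4 array of culture 26 (adjusted p from 0.087 to 0.13). Tet2, which oxidises methylcytosine, stood at -0.34, 0.81 and 1.12 at day 4 and -0.35, -0.60 and 0.61 at day 1 (0.64 ± 0.68, adjusted p = 0.661). Apobec2, a muscle member of the deaminase family, rose by 1.59 ± 0.39 (adjusted p = 0.013), and its call ended without either array of culture 21 or the day 4 array of culture 26 (adjusted p from 0.055 to 0.073). Neil3, a glycosylase of dividing cells, was above background on no day 4 array and at least 2.30-fold lower (adjusted p = 0.00694). Of 27 polycomb and remodelling genes, all tested, 4 were lower and none higher, with 3, 2 and 4 lower without the arrays of culture 21, 26 or 28. Among them Hmgb2, a chromatin protein of proliferating cells, fell by 2.59 ± 0.40 (adjusted p = 0.000567) and Suv39h1, a histone H3 lysine methyltransferase, by 1.81 ± 0.34 (adjusted p = 0.00211).

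In protein synthesis and folding, muscle isoforms were among the genes called. Of 37 cytosolic ribosomal and elongation genes, all tested, 2 were higher and none lower, with a median of -0.15. Fitted without the arrays of culture 21 or of culture 26, 1 was called. Rpl3l, which replaces Rpl3 in striated muscle, stood at 1.09, -0.06 and -0.16 at day 4 and -5.73, -6.11 and -3.94 at day 1 (5.55 ± 0.70, adjusted p = 0.000121), and was above background on 1 of the 3 day 1 arrays. Eef1a2, the elongation factor of muscle and neurons, was above background on no day 1 array and at least 5.71-fold higher (adjusted p = 0.00675). Of 12 tested genes of myosin folding and assembly 1 was higher and 1 lower. Hspb6, a small heat shock protein of muscle, was 7.99-fold higher, at 6.57, 5.38 and 5.57 against 2.92, 3.30 and 2.31 (adjusted p = 0.000274). Hsp90aa1, a chaperone that folds myosin, fell, to 4.02, 5.06 and 5.41 at day 4 against 6.90, 6.33 and 6.64 at day 1 (-1.79 ± 0.32, adjusted p = 0.00147). Of 23 tested genes of ER stress and the amino acid response 4 were lower and none higher, none without the arrays of culture 21 or of culture 26 and 3 without those of culture 28. Pdia4, a disulfide isomerase of the ER, fell by 1.48 ± 0.33 (adjusted p = 0.0067), and Hsp90b1, the ER chaperone GRP94, by 1.63 ± 0.42 (adjusted p = 0.0168). The call of Hsp90b1 ended without either array of culture 21, the day 4 array of culture 26 or the day 1 array of culture 28 (adjusted p from 0.06 to 0.11). Of 20 genes of protein breakdown 3 were higher, none without the arrays of culture 21 or of culture 26 and 2 without those of culture 28. Capn3, the muscle calpain, rose by 3.38 ± 1.03 (adjusted p = 0.0425), a call that ended without all but the day 1 array of culture 21 (adjusted p from 0.051 to 0.21). Another was Fbxo40, a muscle F-box protein (2.67 ± 0.61, adjusted p = 0.0086), whose second probe gave 0.20 and was not called.

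**Figure D4:**
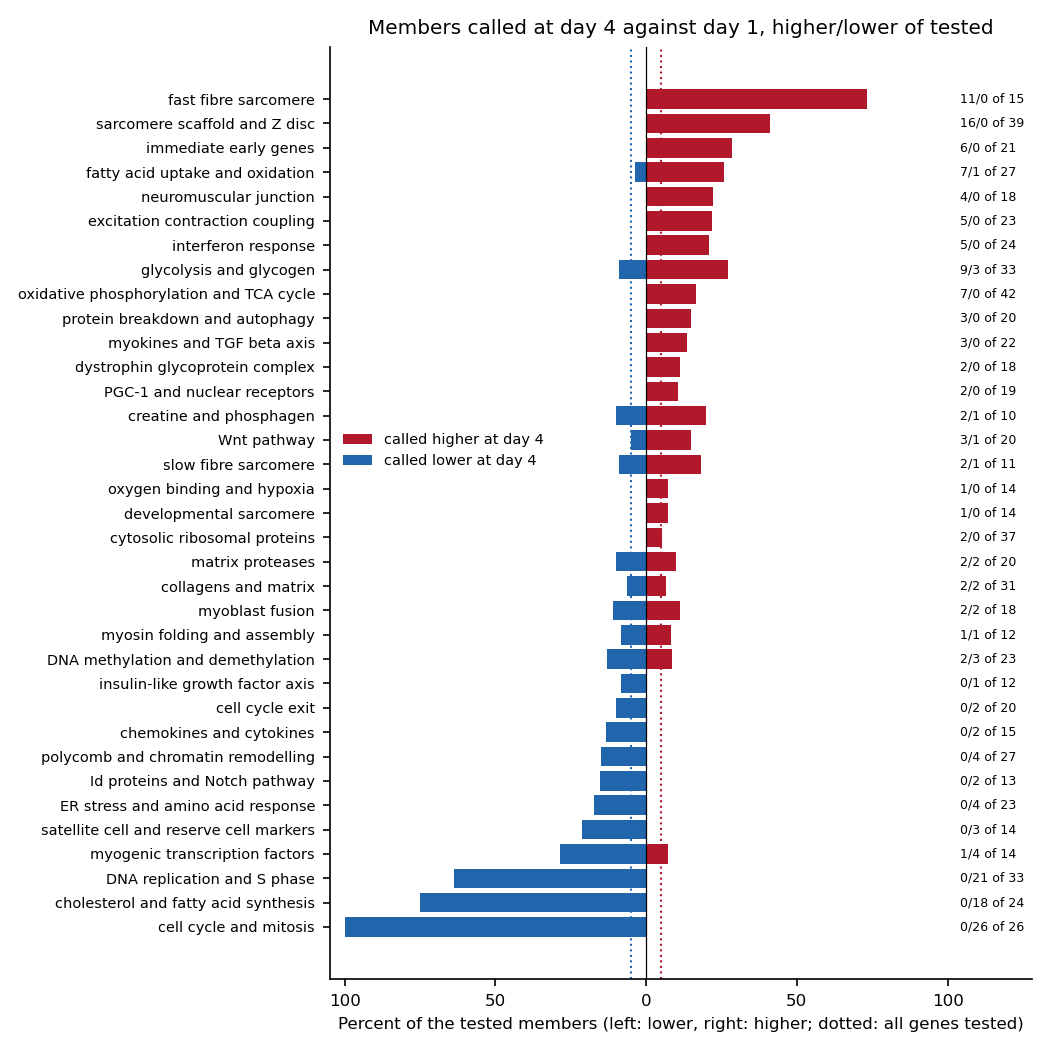
For each gene list with at least 10 tested members, the percent of tested members called higher at day 4 (red, right) or lower (blue, left), with the counts higher/lower of tested at the right edge. Dotted lines mark all genes tested, 4.82% higher and 5.00% lower; fast fibre genes (11 of 15) lie farthest to the right, and cell cycle genes (26 of 26) and cholesterol and fatty acid synthesis (18 of 24) farthest to the left.

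Several of the most changed genes belong to none of the lists. Gabrd, the delta subunit of the GABA-A receptor, a chloride channel of neurons, had the largest rise among the named genes above background on all 6 arrays. It stood at 4.20, 3.98 and 5.29 at day 4 and -2.44, -4.01 and -0.64 at day 1, 116-fold higher (6.85 ± 0.94, adjusted p = 0.000241). Thrsp, a regulator of lipogenesis, rose 70.7-fold, at 3.85, 3.45 and 1.31 against -3.97, -3.84 and -2.01 (adjusted p = 0.000301). Zap70, a kinase of T cell receptor signalling, stood at 3.23, 1.63 and 1.87 at day 4 and -3.03, -2.98 and -2.79 at day 1 (5.17 ± 0.59, adjusted p = 6.77e-05). Cd24a, a surface glycoprotein, stood at 4.21, 2.49 and 2.03 at day 4 and -0.98, -2.37 and -2.86 at day 1 (4.98 ± 0.66, adjusted p = 0.000194). Of the genes above background on no day 1 array, Armh4 was at least 31.5-fold higher (adjusted p = 0.00257) and Asb11, an adaptor of ubiquitin ligases, at least 26.1-fold higher (adjusted p = 0.000238).

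Of the genes that fell, Sema6b, a semaphorin, stood at -0.86, -2.44 and -1.77 at day 4 and 2.65, 1.81 and 2.67 at day 1 (-4.07 ± 0.65, adjusted p = 0.000699). Chst8, a carbohydrate sulfotransferase, and Olfml2b, a secreted olfactomedin-like protein, fell by 3.89 ± 0.60 and 3.63 ± 0.57 (adjusted p = 0.000545 and 0.000578). Rgs16, a regulator of G protein signalling, fell, to -0.02, -0.27 and -0.47 at day 4 against 3.72, 3.52 and 3.15 at day 1 (-3.71 ± 0.41, adjusted p = 5.44e-05), with the 3 cultures within 1 log2 unit in each group. Of the genes above background on no day 4 array, Cpa1, a carboxypeptidase, stood at 0.80, 2.02 and 1.13 at day 1 and was at least 32.5-fold lower (adjusted p = 3.93e-05). Tex14 and Npas1 were at least 8.47-fold and at least 6.46-fold lower (adjusted p = 0.00129 and 0.013), and the call of Npas1 ended without the day 1 array of culture 28 (adjusted p = 0.067).

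The day 2 arrays carry the same culture numbers, but each lay on another slide than the day 1 and day 4 arrays of its number. After group means were removed, day 2 and day 1 arrays of 1 number correlated across genes at r = -0.02, 0.435 and -0.034 for cultures 21, 26 and 28, so differences within a number are given as values only and culture and slide are both in them. Both intervals share arrays with the comparison of day 4 with day 1, so their values are given side by side only. Fast fibre genes had a median difference of 1.51 between day 2 and day 1 and of 0.77 between day 4 and day 2. For the sarcomere scaffold these were 1.13 and 0.19. Cell cycle genes were lower at day 2 than at day 1 by a median of 4.12, and day 4 lay 0.82 above day 2. Against the day 1 array of the same number, the medians at day 2 were -3.93, -4.94 and -3.40. The median level at day 2 was -1.08, -2.31 and -2.01. Cholesterol and fatty acid synthesis fell in both intervals (-0.88 and -1.19). Interferon response genes had a median of 1.55 between day 4 and day 2. Between day 2 and day 1 it was 1.52 in culture 21, -0.36 in culture 26 and -0.54 in culture 28. Lss averaged -0.73 in proliferating myoblasts, 2.66 at day 1, 1.10 at day 2 and -0.77 at day 4.

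**Figure D5:**
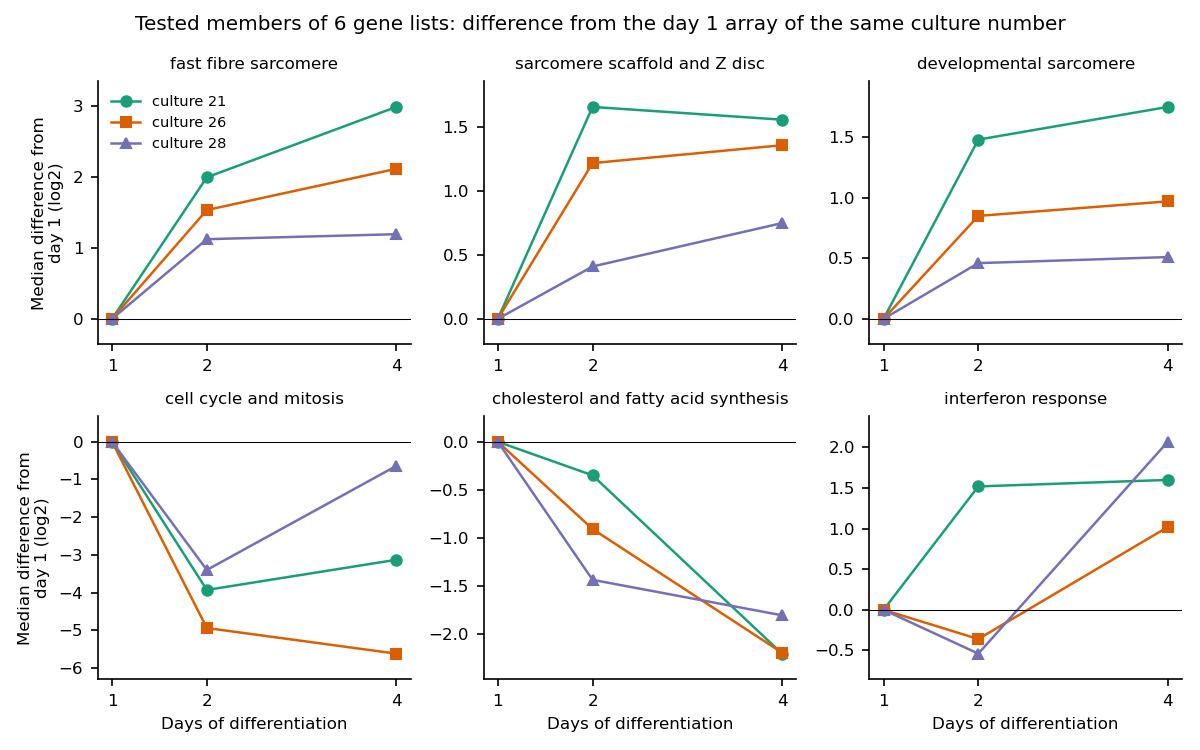
Median log2 difference of the tested members of 6 gene lists from the day 1 array of the same culture number, at 1, 2 and 4 days of differentiation, 1 line for each culture; day 2 arrays lay on other slides than the day 1 and day 4 arrays of their number. Cell cycle genes of culture 28 lie 3.40 below day 1 at day 2 and 0.64 below at day 4, whereas those of culture 26 lie 4.94 and 5.62 below; cholesterol and fatty acid synthesis ends between -2.21 and -1.81 in all 3 cultures.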

How the data were processed

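Total RNA was measured on 23 arrays. Per the file headers, Agilent Feature Extraction 10.7.3.1 turned each spot's brightness into a background-subtracted, detrended intensity, and set flags of 0 or 1 (another kind of value) for spots above background or out of line. The authors also deposited log2 values, which look quantile normalized and served as an alternative. Of 62976 spots 59305 were not controls, on 55681 probes, named through RefSeq where the accession or symbol matched (36095 gene names, 21983 known to RefSeq). Probe positions are those of the files, on mm9.

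Spots out of line were left out, spots of a probe averaged, and each gene represented by its brightest probe. Limma 3.58.1 fitted 7 groups of 3 samples with 14 residual degrees of freedom; 14 tested genes lacked a value on at least 1 of the 6 arrays and were fitted without it. A gene seen on no array of 1 group has its fold set against the lowest signal that still counted as above background there, printed as a lower bound. On simulated data for this comparison with 18933 genes, 47% of changes of 1.5 log2 units and 89% of those of 3 were recovered, with 7 false calls. The simulated noise was independent and normal, with the same spread for a gene in every group. It held no culture, slide or dim array effect, so these shares check the code and are no error rate for the real arrays.

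After group means were removed, day 4 and day 1 arrays with the same culture number correlated across genes at r = 0.138, 0.397 and 0.661 for cultures 21, 26 and 28, each over the 0.1 set for treating the numbers as pairs. These arrays also share a slide, and the block cannot part culture from slide. Over proliferating myoblasts and all myotube days, r lay between -0.168 and 0.589 (median 0.074, 15 pairs) for the same number on different slides, and between -0.549 and 0.398 (median 0.149, 15 pairs) for different numbers on the same slide. The block is an alternative here.

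The members and the 42 gene lists were chosen with earlier results of these data known, and 3 listed genes are not on the array. Named genes were the 10 called higher and 10 called lower with the largest fold among RefSeq genes above background on all 6 arrays without overlap between groups, the 4 with the largest lower bound in each direction, from each list the 2 most changed called genes per direction, and a fixed set. Genes named outside this rule are marked. Promoters are RefSeq's, build GRCm38.p6. Alternatives covered background correction, scaling, filters, probe choice, samples in the fit, blocks and left-out arrays.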

Additional observations from a re-analysis of the deposited data

How the results depend on the processing

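Against 912 genes higher and 946 lower at day 4, the 6 arrays fitted alone (4 residual degrees of freedom) gave 374 and 248, an adjusted p threshold of 0.01 gave 446 and 464, and testing all 36095 genes without a filter gave 619 and 587, the last with more genes tested. Leaving out 1 day 4 or day 1 array, or both arrays of a culture, gave 300 to 1211 genes higher and 263 to 1115 lower. Among these, the lowest counts were without both arrays of culture 21 (300 higher, 362 lower) or of culture 26 (371 higher, 263 lower). That comparison was chosen after the data were seen. The highest were without the day 4 array of culture 28. Among single day 4 or day 1 arrays the lowest were 491 higher, without the day 1 array of culture 21, and 578 lower, without the day 1 array of culture 26. A proliferating myoblast array, which enters the pooled spread, was dimmer still, with a 75th percentile of 87.7 intensity units. Without it 1138 genes were higher and 1136 lower. With the culture number as a replicate block in the 2 groups alone, 1169 genes were higher and 1007 lower. The block changed the calls of Dnmt1, Tpm3, Myog, Myf6 and Mstn among named genes and no other.

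The genes Chrng, H19, Igf2, Mymk and Tpm3 turned direction, and only Tpm3 had been called. The values are log2 differences, day 4 minus day 1. Chrng was 0.215 without the day 4 array of culture 26, 0.407 without the day 1 array of culture 28 and 0.242 without both of culture 28; single arrays left out gave -0.228 to 0.407. H19 was -0.048 with quantile normalization. Igf2 was -0.062 with normexp, -0.07 with quantile normalization, -0.003 with the percentile over detected probes and -0.047 with the authors' values. Left-out single arrays put Igf2 between -0.439 and 0.34, with -0.026 and -0.027 without the day 1 array of culture 21 or 26, and both arrays of culture 21 left out gave -0.487. Mymk was -0.104 without the day 1 array of culture 21 and -0.081 without both of culture 21, and single arrays left out gave -0.104 to 0.537. Tpm3 was 1.383 with the mean of its probes. The cause was not tested except for Tpm3, whose probes differ.

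Of 115 named genes called, 53 kept the call under all 14 alternatives that leave out no myotube array, and 68 without each single myotube array. The dim day 4 array of culture 21 limits what can be seen of weakly expressed genes.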

Other observations

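The genes and families described here were chosen after their values were seen, and the families carry no test as families. Of 13 tested Asb genes, which encode adaptors of ubiquitin ligases, 4 were called higher at day 4 and none lower. The count was 2 without either array of culture 21, without the day 1 array of culture 28 and without both arrays of culture 21 or of culture 26, with Asb10 and Asb16 the calls that ended without either array of culture 21. Asb14 stood at 0.52, -0.68 and 0.31 at day 4 in cultures 21, 26 and 28, was above background on no day 1 array, and was at least 22.8-fold higher (limma, adjusted p = 0.000806). Gabrb2, a subunit of the GABA-A receptor like Gabrd, stood at -1.43, 0.60 and -0.77 at day 4 and -2.69, -2.42 and -2.09 at day 1 and was called higher (limma, adjusted p = 0.00784).

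Of 31 tested kinesin genes 6 were higher and 11 lower. Without the day 4 array of culture 26, 6 were lower, and without the day 1 array of culture 21, 7. Without both arrays of culture 21, 2 were higher and 5 lower, and without those of culture 26, 3 and 3. Those lower include motors of the mitotic spindle such as Kif4, at -4.30, -6.27 and -1.82 at day 4 and 0.01, 0.32 and -1.22 at day 1 (-3.83 ± 0.71 SE, adjusted p = 0.0019), above background on 1 of the 3 day 4 arrays. Those higher include Kif1c and Kif5a, transport motors, with differences of 1.41 and 1.34 (adjusted p = 0.00401 and 0.00746). The call of Kif5a ended without the day 1 array of culture 21 (adjusted p = 0.055). Of 18 tested genes whose symbols begin with H2-, most of them of the major histocompatibility complex, 9 were higher and none lower. Without the day 1 array of culture 21 only 2 were higher, H2-T23 and H2-Ke6. Without the day 4 array of culture 21, 5 were higher and 1 lower, and without both arrays of culture 21 none was higher and 1 lower. H2-T23 stood at 3.86, 2.77 and 4.00 at day 4 and 0.78, 1.58 and 2.06 at day 1 (2.07 ± 0.37, adjusted p = 0.00151). These paralogs are close in sequence and may share signal between probes, so the members are uncertain one by one.

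On slide 3, 37 probes were above background on none of the 7 arrays of the fit while above it on at least 80% of the arrays of the other slides, and no such probe was found on slides 1 and 2. The probe of Cdk1, the mitotic kinase, was low on slide 3 in every group of cultured cells. It stood at -1.92, -2.58 and -6.51 at day 4 and at 1.24, 1.61 and -6.50 at day 1, with culture 28 on slide 3. In proliferating myoblasts it stood at -1.69 on slide 3 and at 1.80 and 1.77 on the others. Cdk1 was therefore not tested.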
